A study of Mus musculus with 12 samples.

Results

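The Hivep genes Hivep1, Hivep2 and Hivep3, which encode large zinc finger transcription factors, were followed in the cortex of neonatal mice given ethanol, with and without the p53 gene. They were found by symbol in the deposited tables of 24452 gene symbols and 35840 RefSeq transcripts, where each of the 3 symbols had 1 transcript, so that 3 transcripts in all were described. Each Hivep value was a whole count and the sum over a symbol was the value of its single transcript. Hivep3 was selected on its measured fold change and rank in the comparisons of wild-type ethanol with wild-type saline, of knockout saline with wild-type saline, and in the interaction between genotype and treatment. Its values in those comparisons are therefore given as a description with no test, while Hivep1 and Hivep2 came in by family name and were tested throughout.

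The series held 12 total RNA libraries from whole somatosensory cortex of male C57BL/6 mice at postnatal day 7. The 4 groups of 3 libraries were wild-type (WT) mice injected with saline, WT mice injected with ethanol, p53 knockout (KO) mice injected with saline and KO mice injected with ethanol, all taken 8 hours after the injections. The KO mice carried Trp53tm1Tyj, a germline disruption present in every cell, and both genotypes came from crosses of heterozygous parents, so the comparison of genotypes was not limited to any cell type. Tissue was taken by laser microdissection for some samples and by hole punch for others, and the labels used here do not tie the method to a library. The tissue was bulk cortex, so fewer cells of a type and less RNA per cell cannot be told apart in any value below.

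Proteins of this family, also called Schnurri proteins, carry separated pairs of C2H2 zinc fingers and were first found through their binding to the kB motif in the enhancer of HIV, a motif shared with the NF-kB factors. In the fly, Schnurri acts with Smad proteins downstream of the BMP-like ligand Dpp, and the mammalian proteins have been tied to both BMP and NF-kB signaling. Hivep2 is abundant in forebrain neurons, and its loss in mice leads to low-grade brain inflammation and altered maturation of the dentate gyrus. Hivep3 is best known as a brake on bone formation that works with the ubiquitin ligase Wwp1 on Runx2, and as a partner of Jun in T cells.

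All 3 mRNAs were long and were built alike. Hivep1 (NM_007772) lay on the plus strand of chromosome 13 from 42052021 to 42185026 (mm10) and had 9 exons, a length of 8753 bases and a GC content of 51.3%. Its exon 4, from 42154380 to 42160318, was entirely coding and held 73.6% of the coding sequence. Hivep2 (NM_010437) lay on the plus strand of chromosome 10 from 13966379 to 14151378, with 9 exons, a length of 9763 bases and a GC content of 49.1%. Its exon 4 held 70.5% of the coding sequence. Hivep3 (NM_010657) spanned 119814678 to 120135411 on the plus strand of chromosome 4 in the deposited table, and the matched GENCODE transcript was longer at both ends, from 119814495 to 120138045. That transcript had 9 exons, 11838 bases and a GC content of 54.6%, the highest of the family, and its exon 4 held 70.4% of the coding sequence. The antisense gene Gm28289 shared 254 exon bases with Hivep2, and the same-strand gene AL607142.1 shared 78 exon bases with Hivep3. Whether the counting used strand was not given in the sources used here, so reads in those bases could belong to either gene.

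The stretches before the RefSeq starts differed more in GC content than the mRNAs did. Over the 250 bases before the RefSeq start (GRCm38.p6), GC content was 88.4% for Hivep1, 75.2% for Hivep2 and 46.4% for Hivep3, against a median of 52.4% over 32851 RefSeq promoters. The same windows held 41, 29 and 9 CpG dinucleotides, against a median of 6. Most of the Hivep3 window, from 119814495 on, lay within exon 1 of the matched GENCODE transcript, and the stretch shown for Hivep3 spans that start. Part of the Hivep2 window was exonic in another GENCODE transcript of Hivep2. The 30 bases of each window with the most letters in a GC box or a p53 half-site are shown because they carry this difference between members, with matches in capitals.
Hivep1, chr13:42051899-42051928, plus strand: ggcGGGCGGGCGGGCGGGCGGGGCGGcagg
Hivep2, chr10:13966244-13966273, plus strand: ggatcccccccaCCGCCCgccgcgtcgcgc
Hivep3, chr4:119814478-119814507, plus strand: ttcccggcgcGAGCATGCTCaccaccagcc
The GC box, GGGCGG on either strand with overlaps counted, matched 14 times in the Hivep1 window, 2 times in that of Hivep2 and 0 times in that of Hivep3, and 32.7% of all promoters held at least 1. The 10-base p53 half-site matched once, 190 bases before the Hivep3 start, and 7.13% of all promoters held a match. The cAMP response element TGACGTCA matched in none of the 3 windows and in 1.55% of promoters. These matches describe letters in the windows only.

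Library totals ran from 719735 counts in KO ethanol replicate 1 to 17066392 in KO saline replicate 2, and the libraries whose names open with L, WT saline replicate 1 and KO ethanol replicate 1, were the shallowest. The 3 WT saline libraries and KO ethanol replicate 1 stood apart in their counts by transcript length. Transcripts of at least 8753 bases, the length of Hivep1, took 1.53 to 3.43% of the counts in those libraries and 3.55 to 4.94% in the other 8, while transcripts below 1500 bases took 22.8 to 46.2% and 14.1 to 20.9%. Every gene of the excitatory neuron list was detected in each group. So was every gene of the striatum, fibroblast and choroid plexus lists, so detection alone does not tell the tissue. The summed level of the excitatory neuron list was 1013 to 1406 CPM (counts scaled to a common library size with TMM factors) in WT saline. It overlapped with WT ethanol (741 to 1173) and KO saline (1074 to 1336). KO ethanol (841 to 938) lay below both saline groups and within the range of WT ethanol. The 3 red blood cell genes summed to between 201.6 and 954 in WT saline, up to 557 in KO ethanol replicate 1, and at most 104 in WT ethanol and 69.7 in KO saline. The 4 pan-neuronal genes summed to between 7578 and 8319 in WT saline and reached 10256 in KO ethanol replicate 1, and their highest value in KO saline was 6749. Choroid plexus genes ran from 3.60 to 119 in WT saline and from 22.1 to 4999 in WT ethanol. They ran from 27.1 to 2252 in KO saline and from 0 to 2209 in KO ethanol, with 0 counts in the shallowest library. Striatum genes summed to 55.5 to 125 in WT saline and 30.2 to 348 in WT ethanol. Fibroblast genes summed to 5.14 to 535 in WT saline and 52.0 to 225 in WT ethanol. Trp53 itself had 3.67 to 26.2 CPM in WT saline and 11.1 to 27.6 in KO saline. Counts over the whole transcript do not check a disruption that leaves part of the gene in place, so genotypes are given as labelled.

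Hivep3 was at a low level in WT saline cortex and was higher in every WT ethanol and KO saline library. WT saline libraries held 4, 9 and 22 Hivep3 counts, with exact 95% Poisson intervals, which cover counting error only, of 1.09 to 10.2, 4.12 to 17.1 and 13.8 to 33.3. Scaled to library size with TMM factors, the Hivep3 level was 2.05, 1.70 and 1.69 CPM, or 1.81 ± 0.203 (SD, n = 3). These 3 values lay close together, but with so few counts they cannot show that the libraries had 1 level. In the deposited RPKM the same libraries gave 0.385, 0.216 and 0.204.

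In WT ethanol cortex, the libraries held 302, 84 and 213 Hivep3 counts, and their normalized levels were 17.0, 14.8 and 19.6 CPM, or 17.1 ± 2.39 (SD, n = 3). KO saline libraries gave the highest levels of the series, with 511, 553 and 307 counts, 44.8, 32.1 and 22.6 CPM, and a mean of 33.1 ± 11.1 (SD, n = 3). KO ethanol libraries were split. Replicates 2 and 3 held 274 and 293 counts, or 21.6 and 18.5 CPM. Replicate 1 held 2 counts, with an exact 95% Poisson interval of 0.242 to 7.22, or 3.28 CPM, near the level of WT saline. The group mean was 14.5 ± 9.81 (SD, n = 3). WT saline did not overlap with WT ethanol or with KO saline. The lowest KO saline library, at 22.6 CPM, lay narrowly above the highest KO ethanol library (21.6) and the highest WT ethanol library (19.6). The share of all transcripts separated between KO saline and WT ethanol was not counted, and Hivep3 was selected on comparisons that use these groups. WT ethanol and KO ethanol overlapped. By group mean the order from low to high was WT saline, KO ethanol, WT ethanol and KO saline.

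**Figure D1:**
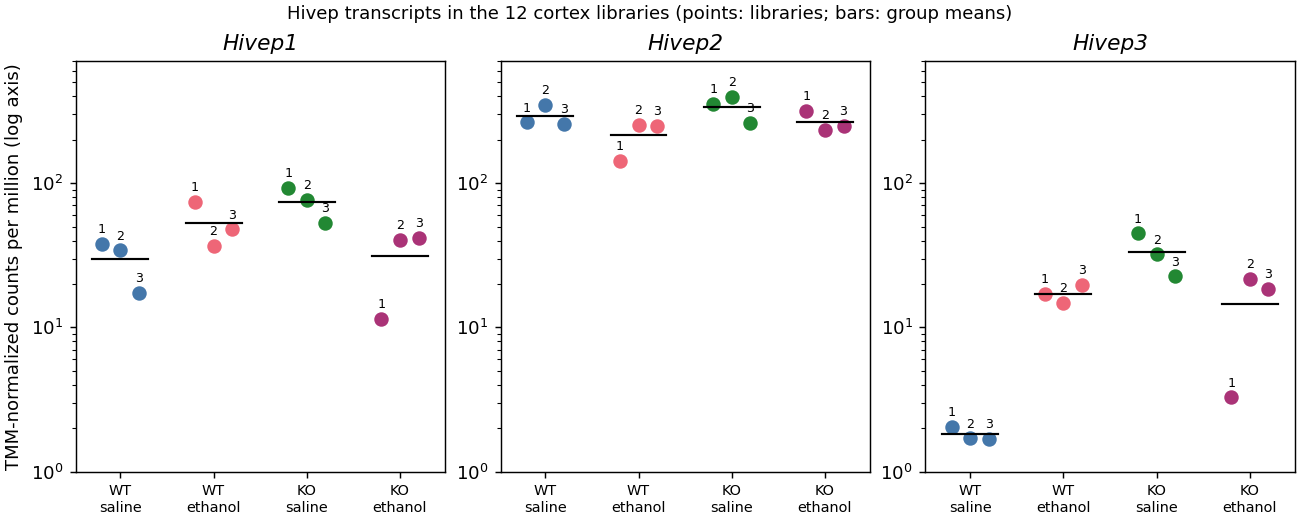
TMM-normalized CPM on a log axis for Hivep1, Hivep2 and Hivep3, with 1 numbered point per library (n = 3 a group) and a bar at each group mean. Hivep3 sat between 1.69 and 2.05 in WT saline and between 14.8 and 44.8 in WT ethanol and KO saline, whereas Hivep2 stayed between 143 and 394 in all 12 libraries.

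On the log2 scale of the fit over 21715 transcripts, Hivep3 was 3.26 (SE 0.58) higher in WT ethanol than in WT saline, a 9.60-fold difference between levels. It was 4.21 (SE 0.60) higher in KO saline than in WT saline, an 18.5-fold difference. The choice of Hivep3 used both contrasts, in which 20.9% and 23.9% of all tested transcripts had groups that did not overlap, and nothing is read from its place among them. The comparisons share the WT saline libraries, so a low Hivep3 level in those 3 libraries enters both. The interaction, which is the ethanol difference in KO minus that in WT, was -4.35 (SE 0.77) for Hivep3.

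Among KO mice, every ethanol library had less Hivep3 than every saline library. The interaction on which Hivep3 was selected contains this difference, and the KO saline libraries entered another of the selecting comparisons. The direction and separation here were thus favored by that choice. The log2 difference was -1.09 (SE 0.51), with an adjusted p = 1.00 (edgeR quasi-likelihood test, Benjamini-Hochberg), so it did not pass. Across all transcripts, 11.2% had groups that did not overlap in this comparison, 7.27% with every ethanol library lower. Without KO ethanol replicate 1 the Hivep3 difference was -0.75 (SE 0.41). WT ethanol and KO ethanol overlapped for all 3 members, while 12.4% of transcripts had no overlap there. Between KO ethanol and WT ethanol the log2 difference of Hivep3 was -0.14 (SE 0.50; edgeR adjusted p = 0.999), and it was 0.21 (SE 0.40) without that library. No direction of genotype among ethanol-exposed mice was thus resolved for Hivep3.

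Hivep1 showed the same order of group means as Hivep3, WT saline lowest and KO saline highest, over a smaller range. In WT saline its libraries held 74, 181 and 224 counts, and the normalized levels were 37.9, 34.2 and 17.2 CPM, with a mean of 29.8 ± 11.0 (SD, n = 3). WT ethanol libraries gave 74.2, 36.7 and 47.8 CPM from 1318, 208 and 519 counts, with a mean of 52.9 ± 19.3 (SD, n = 3). The lowest WT ethanol library lay just under the highest WT saline library, so these groups overlapped.

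KO saline libraries gave 92.9, 76.4 and 53.2 CPM of Hivep1, or 74.2 ± 20.0 (SD, n = 3), and lay above all WT saline libraries. In that comparison 23.9% of all tested transcripts had groups that did not overlap. In KO ethanol the level was 11.5, 40.2 and 41.6 CPM, or 31.1 ± 17.0 (SD, n = 3), below all KO saline libraries, as for 7.27% of transcripts. The value of 11.5 came from replicate 1, in which 7 counts (exact 95% Poisson interval 2.81 to 14.4) stood for the transcript. That library thus had the lowest measured Hivep1 level of the series, and its Hivep3 level was 3.28 CPM from 2 counts. Counts this few do not settle its order against the lowest WT saline library for Hivep1, or against any of them for Hivep3.

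None of the 5 contrasts passed for Hivep1 or Hivep2 after adjustment over all transcripts with edgeR. For Hivep1 the largest pairwise differences were those with KO saline. Hivep1 was 1.33 (SE 0.49) higher on the log2 scale in KO saline than in WT saline (edgeR adjusted p = 0.188), and its unadjusted p was under 0.05, as for 19.1% of all transcripts, while 0.0691% passed after adjustment. With both libraries named with L left out, the value was 1.48 (SE 0.43) and the adjusted p fell to 0.0391, in a setting where the number of transcripts called also went from 15 to 3848. The Hivep1 difference between KO ethanol and KO saline was -1.19 (SE 0.49; edgeR adjusted p = 1.00), with an unadjusted p under 0.05, as for 2.99% of transcripts, while 0% were called after adjustment. It was -0.88 (SE 0.45) without KO ethanol replicate 1. By DESeq2, 5 transcripts were called in that comparison and Hivep1 was not among them.

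Ethanol in WT mice went with a Hivep1 difference of 0.84 (SE 0.48; edgeR adjusted p = 0.364), where 18.2% of transcripts had an unadjusted p under 0.05 and 0.0553% passed. Between the ethanol groups, KO minus WT was -0.71 (SE 0.48; edgeR adjusted p = 0.999), where 3.29% of transcripts had an unadjusted p under 0.05 and 0% were called. The interaction was -2.03 (SE 0.69; edgeR adjusted p = 0.223), with an unadjusted p under 0.05, as for 15.3% of transcripts. In the interaction 0 transcripts were called by edgeR and 708 by DESeq2, where the adjusted p of Hivep1 was 0.0958.

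Hivep2, the member known from forebrain neurons, was the most highly counted and the steadiest. Its libraries held between 193 and 6792 counts. WT saline gave 263, 350.0 and 256 CPM, or 289.6 ± 52.4 (SD, n = 3). WT ethanol gave 143, 251 and 249, or 214 ± 62.1 (SD, n = 3), so that every WT ethanol library lay below every WT saline library, by a narrow margin for replicates 2 and 3. This is the opposite side from Hivep3, and 8.34% of all transcripts had every WT ethanol library lower.

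KO saline gave 355, 394 and 261 CPM of Hivep2, or 337 ± 68.1 (SD, n = 3), and KO ethanol gave 316, 234 and 248, or 266 ± 44.1 (SD, n = 3). These groups overlapped with each other, KO saline overlapped with WT saline, and KO ethanol overlapped with WT ethanol. KO ethanol replicate 1, low for Hivep1 and Hivep3, was the highest KO ethanol library for Hivep2. The log2 difference was -0.44 (SE 0.37; edgeR adjusted p = 0.545) for ethanol in WT, 0.22 (SE 0.37; adjusted p = 0.779) for genotype in saline and 0.09 (SE 0.52; adjusted p = 0.957) for the interaction. For ethanol in KO it was -0.34 (SE 0.37; edgeR adjusted p = 1.00) and for genotype in ethanol 0.31 (SE 0.37; adjusted p = 0.999). Directions of this size depended on scaling: without TMM factors the WT ethanol difference was 0.060, beside a median of 0.54 over all transcripts.

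Per length, the family kept 1 order in all 12 libraries. In the deposited RPKM values, which correct for transcript length, Hivep2 ran from 13.4 to 36.7, Hivep1 from 1.88 to 9.38 and Hivep3 from 0.204 to 4.15, and Hivep2 was above Hivep1 and Hivep1 above Hivep3 in 12 of 12 libraries. The distance between them was not fixed. The RPKM of Hivep1 was at most 18.9 times that of Hivep3, and the RPKM of Hivep2 was 1.83 to 13.4 times that of Hivep1.

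Counts of one member against another need no scaling between libraries. For each 100 Hivep2 counts, WT saline libraries held 0.486 to 0.778 Hivep3 counts, WT ethanol libraries 5.90 to 11.9 and KO saline libraries 8.14 to 12.6. KO ethanol libraries held 1.04, 9.26 and 7.44. The Hivep3 counts of WT saline and of KO ethanol replicate 1 were thus few against Hivep2 as well as against the library total. These are the same counts on which Hivep3 was selected, so the ratio is a description and no separate support. It also carries the differences of Hivep2, whose mean was 289.6 CPM in WT saline and 214 in WT ethanol. For Hivep1 the values per 100 Hivep2 counts were 6.73 to 14.4 in WT saline, 14.6 to 52.1 in WT ethanol, 19.4 to 26.2 in KO saline and 3.63 to 17.2 in KO ethanol. The value of 52.1 came from WT ethanol replicate 1, in which Hivep1 was at its group's highest level and Hivep2 at the lowest of the series.

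The 4 libraries with little Hivep3 were also the 4 with the smallest share of counts on long transcripts. WT saline replicate 1 came near to the others in that share, with 3.43% against 3.55% in WT ethanol replicate 3, while its Hivep3 level was 2.05 CPM against 19.6. That level rested on 4 counts in a library whose name opens with L. The part that the share had in the Hivep3 levels was not tested. Among the 630 tested transcripts of at least 8753 bases, the median log2 difference was 0.70 for ethanol in WT and 0.79 for KO saline against WT saline, whereas the medians over all transcripts were 0.06 and 0.05. Of those 630 transcripts, 153 and 166 had an unadjusted p under 0.05 in these comparisons, or 24.3% and 26.3%. Hivep1, at 0.84 and 1.33, ranked 276 and 156 from the highest among them. Hivep2, at -0.44 and 0.22, ranked 594 and 486. Hivep3, selected on these contrasts, ranked 21 and 4.

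For the interaction the long transcripts had a median of -1.13, against -0.14 over all transcripts, and Hivep1 ranked 512 and Hivep2 55 from the highest of 630. For ethanol in KO the median of the long transcripts was -0.37 and Hivep1 ranked 586 and Hivep3 571. For the ethanol groups, KO against WT, the median was -0.32 and the 3 members ranked 466, 62 and 220 in the order of their numbers.

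**Figure D2:**
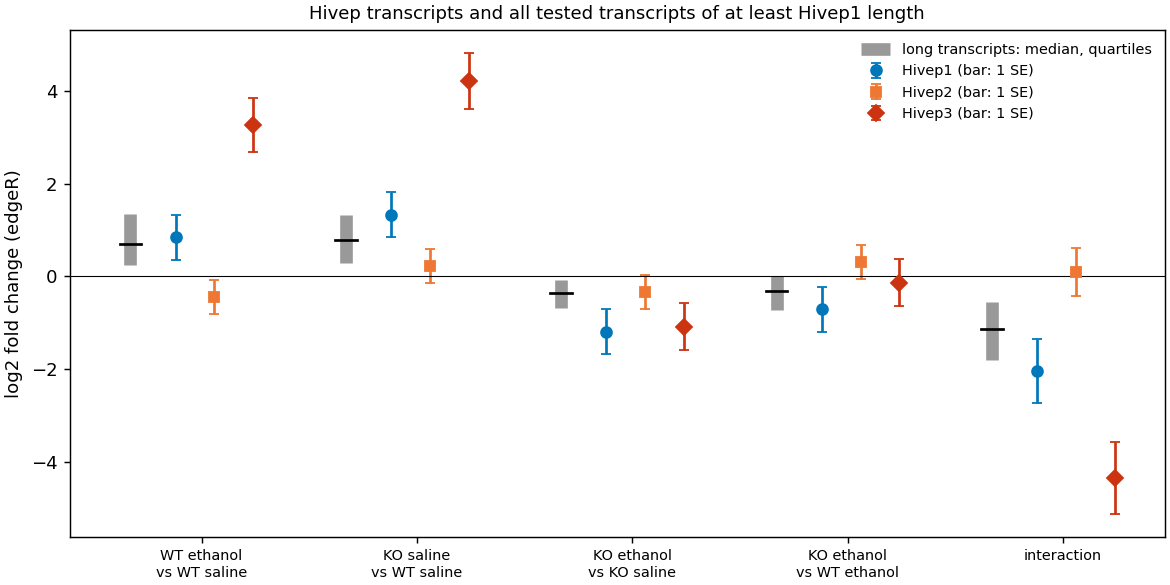
Log2 fold changes (edgeR) of Hivep1, Hivep2 and Hivep3 in 5 contrasts with bars of 1 SE, beside grey bars for the quartiles and a black line for the median of the 630 tested transcripts of at least 8753 bases. In both contrasts with WT saline, Hivep1 lay near or within the grey bar (0.84 and 1.33), Hivep2 below its lower end (-0.44 and 0.22), while Hivep3 (3.26 and 4.21) had been selected on these contrasts, so that nothing is read from its place.

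**Figure D3:**
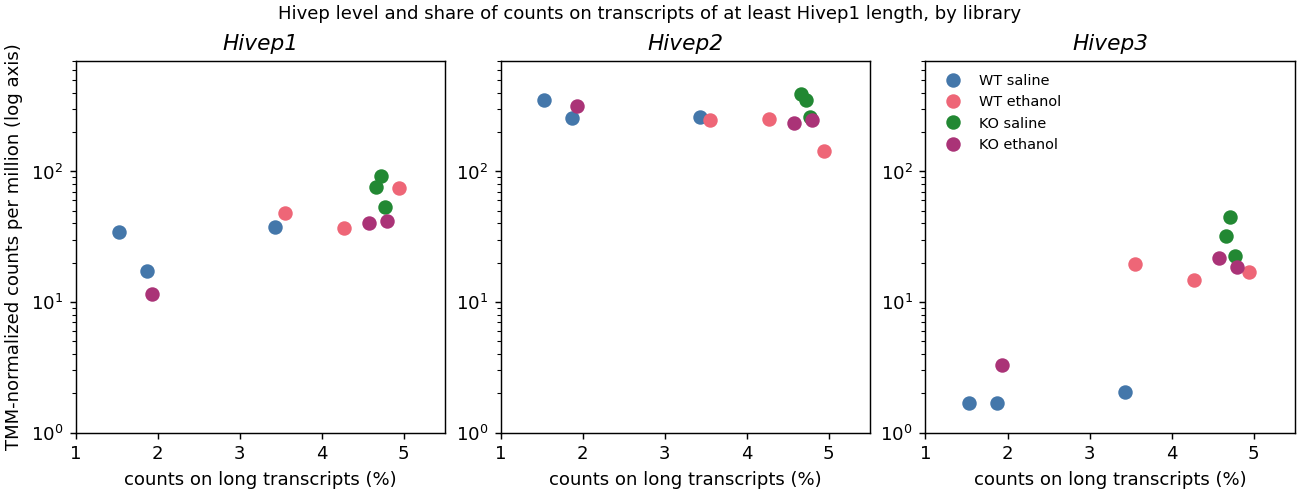
Level of each Hivep transcript (TMM-normalized CPM, log axis) against the share of a library's counts on transcripts of at least 8753 bases (%), 1 point per library, colored by group. Hivep3 was at most 3.28 in the 4 libraries with shares up to 3.43% and at least 14.8 in the other 8, while Hivep2 showed no such step.

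When the dependence of each library's counts on the length and base composition of a transcript was removed before the test, the Hivep3 values moved from 3.26 to 2.18 for ethanol in WT, from 4.21 to 3.05 for KO saline against WT saline and from -4.35 to -3.22 for the interaction. Hivep1 then gave -0.18 and 0.29 in the same comparisons with WT saline, and -0.74 for the interaction, each under 1 on the log2 scale. Hivep2 gave -1.37 and -0.87, and 1.82 for the interaction. These values stand beside a median over all transcripts that this step moved to -0.20, -0.22 and 0.34. The part that the red blood cell and pan-neuronal genes, which moved with the same libraries, had in the Hivep levels was not tested.

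**Figure D4:**
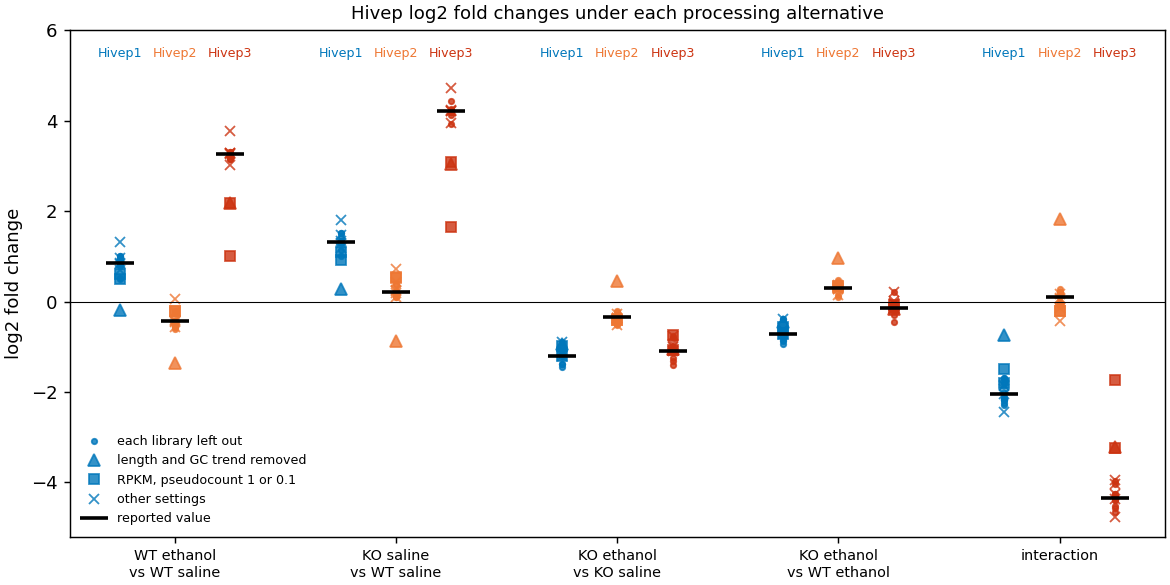
Log2 fold change of each Hivep transcript in 5 contrasts under each processing alternative, with the reported value as a black bar. Hivep3 ran from 1.00 to 3.77 and from 1.66 to 4.73 in the contrasts with WT saline on which it had been selected, so its sign there was settled by that choice. Triangles mark the removal of the length and GC trend, which put Hivep1 at -0.18 for ethanol in WT and Hivep2 on the other side of 0 in the comparisons of KO saline with WT saline and of KO ethanol with KO saline.

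Genes of the pathways known for the Hivep proteins were counted by symbol, over 14739 tested symbols. Of all symbols, 18.3% had an unadjusted p under 0.05 for ethanol in WT, 19.6% for KO saline against WT saline, 3.15% for ethanol in KO, 3.24% for genotype in ethanol and 15.2% in the interaction. After adjustment 0.0746% and 0.0543% passed in the comparisons with WT saline and 0% in the other 3 contrasts, by edgeR. DESeq2 called far more of the 14739 symbols: 488 for ethanol in WT, 717 for KO saline against WT saline and 255 in the interaction. Of 18 NF-kB subunits, inhibitors and kinases, 17 were tested and 0 passed after adjustment in any of the 5 contrasts by edgeR, whereas DESeq2 called Map3k14, the kinase of the noncanonical branch, in both comparisons with WT saline. For KO saline against WT saline, 3 had an unadjusted p under 0.05, all higher, with a list median of 0.56 against 0.04 over all symbols, and 17.6% at that level against 19.6% of all symbols. For ethanol in WT, 1 did (5.88% against 18.3%), also higher. For ethanol in KO, 2 were higher (11.8% against 3.15%), with a list median of -0.17. For genotype in ethanol, 1 was higher (5.88% against 3.24%), and in the interaction 2 were higher (11.8% against 15.2%), with list medians of 0.10 and -0.53. The 3 members with the most counts per kilobase were Nfkbib and Nfkbia, which encode inhibitors that hold NF-kB in the cytoplasm, and Chuk, which encodes a kinase of the IKK complex. For KO saline against WT saline their log2 differences were -0.40 (SE 0.42), -0.66 (SE 0.37) and 1.30 (SE 0.55). For ethanol in KO the differences of Nfkbib and Nfkbia were 0.94 (SE 0.43) and 0.82 (SE 0.38), and in the interaction they were 1.55 (SE 0.60) and 1.24 (SE 0.54), none with an edgeR adjusted p under 0.05.

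Of 18 BMP receptors, Smads and Id genes, 18 were tested and 0 passed by edgeR, and DESeq2 called Acvr2b, an activin receptor, in both comparisons with WT saline and in the interaction. In those contrasts DESeq2 called 488, 717 and 255 of 14739 symbols. At an unadjusted p under 0.05, 3 were higher for ethanol in WT (16.7% against 18.3% of all symbols) and 1 was higher for KO saline against WT saline (5.56% against 19.6%). For KO ethanol against WT ethanol 3 were lower (16.7% against 3.24%), and 3 were lower in the interaction (16.7% against 15.2%). The list medians were 0.34, -0.12, -0.56 and -0.60, against 0.06, 0.04, -0.03 and -0.11 over all symbols. In KO ethanol against KO saline, 1 was higher and 1 lower (11.1% against 3.15%). Id2, Id3 and Id1, which encode inhibitors of basic helix-loop-helix factors and respond to BMP, had the most counts per kilobase, and their log2 differences for ethanol in WT were -0.98 (SE 0.61), 0.04 (SE 0.55) and -0.32 (SE 0.51).

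Of 10 partners and targets known for single Hivep proteins, 9 were tested and 0 passed by edgeR or DESeq2. At an unadjusted p under 0.05, 1 was lower for ethanol in WT (11.1% against 18.3% of all symbols), and 1 was higher and 1 lower for KO saline against WT saline (22.2% against 19.6%), with list medians of -0.16 and 0.0068. For ethanol in KO 1 was lower (11.1% against 3.15%), for genotype in ethanol 0 were at that level (0% against 3.24%), and in the interaction 1 was higher and 1 lower (22.2% against 15.2%). Sstr2, a somatostatin receptor gene bound by Hivep2, differed by -0.74 (SE 0.38; edgeR adjusted p = 0.305) for ethanol in WT and by -0.12 (SE 0.37) for KO saline against WT saline, beside Hivep2 at -0.40 and 0.25 as a symbol sum. Jun, a partner of Hivep3, differed by 1.01 (SE 0.50; edgeR adjusted p = 0.293) and 0.05 (SE 0.50). Tcf4, a helix-loop-helix factor of neurons, differed by -0.10 (SE 0.53) for KO saline against WT saline and by -0.67 (SE 0.53) for ethanol in KO.

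The 22 other large zinc finger factors were all tested and 0 passed by edgeR, while DESeq2 called Zfhx3 and Zfp536 for ethanol in WT and Tshz2 for KO saline against WT saline. Of all 14739 symbols, DESeq2 called 488 and 717 there. At an unadjusted p under 0.05, 5 were higher for ethanol in WT (22.7% against 18.3% of all symbols) and 6 were higher for KO saline against WT saline (27.3% against 19.6%), and none was lower in either. The list medians were 0.87 and 0.61, against 0.06 and 0.04 over all symbols. The 630 tested transcripts of at least 8753 bases had medians of 0.70 and 0.79 in these comparisons. The part that length had in the list medians was not tested. For ethanol in KO and for genotype in ethanol 3 were lower each (13.6% against 3.15% and 3.24%) and none was higher, with medians of -0.32 and -0.26. In the interaction 5 were lower (22.7% against 15.2%), with a median of -1.13, beside -1.13 for the long transcripts. Hivep1, as a symbol sum, stood at 0.87 and 1.36. Its members with the most counts per kilobase were Bcl11a, Zeb2 and Bcl11b, which act in the identity of cortical neurons, and their differences for KO saline against WT saline were 0.23 (SE 0.48), 0.17 (SE 0.42) and 1.14 (SE 0.46).

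The members did not share 1 pattern across libraries. Over the 12 libraries, log2 CPM of Hivep1 and Hivep3 had a Pearson r of 0.749, while r was -0.0757 between Hivep1 and Hivep2 and -0.0698 between Hivep2 and Hivep3. These are descriptions over libraries that share their groups and their differences in depth and long-transcript share. The transcripts most like Hivep3 were those of Gigyf2 (r = 0.970), Rph3a (0.970), Txlng (0.969), Bcl11b (0.966) and Zmym5 (0.965). By symbol sum, Fam13b, Shank2, Abca8b, Camk1d and 4632415L05Rik were most like Hivep3, at r between 0.937 and 0.961. Those most like Hivep1 were Kdm7a, Med1, Zscan29, Qser1 and Pbrm1, at r between 0.933 and 0.940. Those most like Hivep2 were Lmo4, Neurod6, Msra, Zbed4 and Mtif3, at r between 0.905 and 0.940.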

How the data were processed

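RNA from somatosensory cortex was sequenced as stranded total RNA, single-end. Per the study's methods and the labels, the authors removed low-quality reads, aligned the rest to mm10 (GRCm38) with Bowtie2 within TopHat, and assigned them to RefSeq transcripts in Partek Flow. The deposited values are estimated counts and RPKM for each transcript, and at 99.8% of 20504 ranks the deposited RPKM agreed between libraries within 0.1%, as quantile normalization would leave them. The 3 Hivep transcripts and all gene lists were chosen with earlier results of these data known. Estimated counts were rounded and tested with edgeR 4.0.16 (filterByExpr, TMM, glmQLFTest, two-sided, 1 mean per group, 12 libraries sharing 1 spread), for 21715 transcripts and for 14739 symbol sums, with Benjamini-Hochberg adjustment per contrast and a threshold of 0.05. SE was the log2 fold change divided by the root of F. CPM values used TMM library sizes. Nothing in the labels pairs libraries or names litters, so p-values measure the spread between libraries. Lengths and GC content came from GENCODE vM21 through RefSeq identifiers (94.9% of transcripts matched). The authors' counting could divide reads between overlapping genes. Alternatives were DESeq2 1.42.0, limma 3.58.1 on log2(RPKM + 1) and log2(RPKM + 0.1), no TMM, filters of at least 1 count in any or 10 in every library, the first letter of the library name as a covariate, both L libraries left out, a length and GC trend (splines with 5 degrees of freedom) removed, and each library left out. The genes named were the Hivep genes, Trp53, the 3 list members with the most counts per kilobase (and any passing after adjustment), the 5 transcripts most like Hivep3 and the 5 symbols most like each member; the list genes called by DESeq2 were named after their values were seen. The fitting steps were tested on simulated data.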

Additional observations from a re-analysis of the deposited data

Results flagged for a closer look

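Hivep3 was singled out because ethanol went with opposite directions in the 2 genotypes: every WT ethanol library lay above every WT saline library (14.8 to 19.6 against 1.69 to 2.05 CPM), and every KO ethanol library lay below every KO saline library (3.28 to 21.6 against 22.6 to 44.8), by a narrow margin. The difference in KO did not pass: on the log2 scale it was -1.09 (SE 0.51; edgeR adjusted p = 1.00), or -0.75 (SE 0.41) without KO ethanol replicate 1, and 11.2% of all transcripts had groups that did not overlap there. The ethanol log2 fold change in KO minus that in WT was -4.35 (SE 0.77). Hivep3 had been chosen in part for this value, so the difference was not tested. The difference in KO is a part of that value, so its direction was favored by the same choice. The 3 WT saline libraries and KO ethanol replicate 1 also had the smallest shares of counts on transcripts of at least 8753 bases, and the value of -3.98 without KO ethanol replicate 1 was the smallest in size of those with 1 library left out. With each library left out in turn, the value ran from -4.65 to -3.98.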

How the results depend on the processing

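No paired analysis was possible because the labels number no replicates: the numbers used here follow accession order and only name libraries. All Hivep values are log2 fold changes. Among the alternatives that left out no single library, 102 Hivep values kept their direction and their side of the threshold or stayed within the spread between replicates, 12 moved beyond it, 10 reversed and 1 passed the threshold. With single libraries left out, 175 kept theirs and 5 reversed. These counts include Hivep3 in the contrasts on which it had been selected, where its sign was settled by that choice. Hivep1 passed only without both libraries named with L, for KO saline against WT saline (1.48, adjusted p = 0.0391).
Removing the dependence on length and GC content reversed Hivep1 for ethanol in WT (-0.18, and -0.054 summed per symbol), Hivep2 for KO saline against WT saline (-0.87 and -0.73) and Hivep2 for ethanol in KO (0.46 and 0.37). It moved Hivep3 to 2.18, 3.05 and -3.22 for ethanol in WT, KO saline against WT saline and the interaction. Without TMM factors, Hivep2 was 0.060 (0.060 as a sum) for ethanol in WT and -0.43 (-0.43) in the interaction, and Hivep3 was 3.77 and 4.73 in both comparisons with WT saline. That setting moved the median of all transcripts to 0.54, 0.53 and -0.57 for ethanol in WT, KO saline against WT saline and the interaction, and put 3744 of 4308 transcripts at an unadjusted p under 0.05 higher for ethanol in WT, against 2176 of 3947. On log2(RPKM + 1), Hivep3 was 1.00, 1.66 and -1.74 in those contrasts and on log2(RPKM + 0.1) it was 2.18, 3.09 and -3.24, with Hivep2 at -0.20 in the interaction on both, as transcript and as sum. With at least 10 counts in every library, Hivep2 was -0.14 (-0.078 as a sum) in the interaction, and Hivep1 and Hivep3 could not be tested. The first letter of the name as a covariate gave Hivep3 3.01 for ethanol in WT, 0.0096 (0.031) for KO ethanol against WT ethanol, and the Hivep2 sum -0.026 in the interaction. Without both L libraries, Hivep3 was 0.21 (0.22) for KO ethanol against WT ethanol. With single libraries left out, Hivep2 ran from -0.11 to 0.27 in the interaction (-0.11 to 0.26 as a sum) and Hivep3 from -0.45 to 0.21 for KO ethanol against WT ethanol (-0.40 to 0.22). Apart from the named constructions, the cause was not tested.
Transcripts called after adjustment for ethanol in WT and KO saline against WT saline numbered 12 and 15 by edgeR, 1245 and 1486 by DESeq2 and 3095 and 3848 without both L libraries. In the interaction they numbered 0, 708 and 3. Hivep3 rested on 4 to 22 counts a library in WT saline and 2 in KO ethanol replicate 1, where counting error alone spanned severalfold.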
